A study of Homo sapiens with 60 samples.

Results

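Bojungikgi-tang and Banhasasim-tang are multi-herb decoctions of Korean medicine, and their water extracts were compared here in SW1783 cells, an established human astrocytoma line sold by a cell repository, by RNA sequencing after 24 h. The comparison used 12 of the 60 libraries of the series, chosen by their labels: 3 libraries of Bojungikgi-tang, 1 each at 500, 100 and 20 µg/mL, and 9 of Banhasasim-tang, 3 each at the same doses. These doses are called high, medium and low below, and each is a 5-fold step from the next. The vehicle group (3 libraries, 0.1% DMSO by its labels, 2% by the design text) and Yijung-tang, another formula (3 libraries at each dose), are given beside them, and no DMSO content is stated for the extracts. The sample codes of Bojungikgi-tang belong to set 8, those of Banhasasim-tang and Yijung-tang to set 7 and those of the vehicle to set B1. The labels do not say what a code set stands for, so formula and code set cannot be told apart in any difference between Bojungikgi-tang and the other groups. Dose trends within a formula lie within 1 code set. With 1 library per dose, Bojungikgi-tang has no replicates. The spread in its trend and formula tests comes from the residual of all 12 libraries, 9 of them Banhasasim-tang. Those tests thus assume that Bojungikgi-tang libraries vary like these. The labels do not say whether replicates came from separate cultures, so p-values measure the spread between these libraries, which may be technical.

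As background, Bojungikgi-tang is a formula built on astragalus root with ginseng, atractylodes rhizome, licorice, angelica root, mandarin peel, cimicifuga rhizome and bupleurum root. Banhasasim-tang joins pinellia tuber with scutellaria root, coptis rhizome, ginger, ginseng, licorice and jujube, so the formulas share ginseng and licorice. Both are prescribed for digestive complaints. In astrocytes and astrocytoma cells, as in most cells, the NF-kB transcription factors are held in the cytoplasm by inhibitor proteins such as NFKBIA. Signals from cytokine receptors or microbial sensors release them, and they switch on chemokines, adhesion molecules and their own inhibitors. Cytokines of the IL6 family, among them IL6, IL11 and LIF, signal through a shared receptor chain to STAT3, which in astrocytes is tied to reactive gliosis.

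Library totals were 27.21 to 31.09 M (mega) expected counts for Bojungikgi-tang, 23.35 to 36.41 M for Banhasasim-tang and 19.51 to 23.03 M for the vehicle. Mitochondrially encoded genes took 5.953% to 6.599% of the counts with Bojungikgi-tang and 5.881% to 6.908% with Banhasasim-tang, and 5.025% to 5.286% in the vehicle. Of the astrocyte and glial markers, VIM, CD44, GJA1, SOX9 and SLC1A3 were well counted, whereas the defining astrocyte genes GFAP, S100B, AQP4, ALDH1L1 and FABP7 were too low to test. GFAP, the astrocyte filament, summed to 34 counts over the 12 libraries and reached at most 0.184 CPM (counts per 1 M counts), and AQP4, the water channel, summed to 2 counts. The microglial genes AIF1 and TYROBP and the oligodendrocyte genes OLIG1 and SOX10 had no count. Other members of their lists were counted: PTPRC reached 15.1 CPM with Bojungikgi-tang and 14.9 CPM with Banhasasim-tang, and MBP 8.46 and 8.04 CPM. Of the neuron list TUBB3 reached 102 and 111 CPM and SNAP25 39.1 and 35.9 CPM, and of the endothelial list KDR reached 26.4 and 31.1 CPM. The summed level of the microglia and leukocyte list was 178.7 to 189.9 CPM with Bojungikgi-tang and 175.1 to 191.2 CPM with Banhasasim-tang, and the vehicle lay below both at 154.7 to 162.7 CPM. The summed epithelial list was at 118.9 to 181.9 CPM, 119.1 to 197.2 CPM and, in the vehicle, 239.7 to 249.1 CPM. Most of the microglia and leukocyte sum was CD68, which reached 171 CPM with Bojungikgi-tang and 177 CPM with Banhasasim-tang. Most of the epithelial sum was KRT18, which reached 165 and 178 CPM. What part these shifts from the vehicle have in the results below was not tested. Of the 27 tested markers of the 6 cell type lists, 0 were called between the formulas.

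With Bojungikgi-tang, inflammatory genes rose with dose. A trend here is the change in log2 expression per 5-fold step of dose, and a gene was called where the p-value of edgeR's quasi-likelihood test, adjusted over 17440 genes by the Benjamini-Hochberg method, was under 0.05. The trend was called in 237 genes (1.36% of those tested), 130 that rose (0.745%) and 107 that fell (0.614%), and in 235 of them the 3 libraries followed the order of dose. CXCL8, the neutrophil chemokine, stood at 7.43, 23.35 and 81.15 CPM at the low, medium and high dose. Its 9 Banhasasim-tang libraries stood at 8.41, 10.95 and 8.85 CPM at the low dose, 26.3, 29.1 and 29.45 CPM at the medium dose and 105, 103 and 109 CPM at the high dose. All 12 libraries lay above the vehicle mean of 4.95 ± 0.421 CPM (SD, n = 3), and those of the doses did not overlap in either formula. The trend of CXCL8 was 1.74 ± 0.0611 (log2 per step, SE; edgeR adjusted p = 8.82e-14) with Bojungikgi-tang and 1.78 ± 0.0343 with Banhasasim-tang. On GRCh38 it is located at 73740506 to 73743716 of chromosome 4, plus strand. These are bulk libraries, so fewer cells expressing a gene and less RNA of it per cell cannot be told apart.

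ICAM1, the adhesion molecule that leukocytes bind (chromosome 19, 10270835 to 10286615, plus strand), followed the same course. It stood at 75.2, 109.8 and 182.5 CPM with Bojungikgi-tang from the low to the high dose, a trend of 0.64 ± 0.0364 (edgeR adjusted p = 5.67e-10). The Banhasasim-tang libraries held 84.7, 85.2 and 77.9 CPM at the low dose, 132, 124 and 135.5 CPM at the medium dose and 221, 218.5 and 229.5 CPM at the high dose. With the vehicle it was at 55.8 ± 2.92 CPM (SD, n = 3), below every library of both formulas. Without the high-dose library of Bojungikgi-tang its trend was 0.55 (edgeR adjusted p = 0.00432) and that of CXCL8 1.65 (edgeR adjusted p = 2.21e-05).

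Among the 15 tested genes of the NF-kB feedback and effector list, 13 rose with the dose of Bojungikgi-tang and 0 fell, against 0.745% of all genes that rose. The median trend of the list was 0.404, and it was -0.003 over all genes tested. These counts rest on the high-dose library: without it 1 of the 15 (ICAM1) was called, 14 had a positive slope and the median was 0.228. With Banhasasim-tang 15 of the 15 rose (3.33% of all genes) with a median of 0.425. TNFAIP3, which removes activating ubiquitin chains upstream of NF-kB, went from 22.3 to 27.4 and 43.4 CPM with Bojungikgi-tang, and NFKBIA from 48.6 to 56.4 and 81.6 CPM. SOD2, the mitochondrial superoxide dismutase, stood at 149, 201 and 374 CPM, a trend of 0.67. BIRC3, an inhibitor of cell death that acts in tumour necrosis factor signalling, went from 10.8 to 15.5 and 26.7 CPM (0.66). IER3, an early response gene, was low throughout at 1.78, 2.36 and 5.5 CPM (0.86). SOD2 without the high-dose library was at 0.43 (edgeR adjusted p = 0.419), BIRC3 at 0.52 and IER3 at 0.41 (both with an adjusted p of 1).

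Of 15 chemokine and cytokine genes, 11 rose with the dose of Bojungikgi-tang (0.745% of all genes), 0 fell and 4 were not called. The median trend was 0.906. In the fit without the high-dose library 1 (CXCL8) was called, 14 of 15 had a positive slope and the median was 0.608, and without the low-dose library 5 were called. With Banhasasim-tang 14 rose (3.33% of all genes) and 0 fell, with a median of 0.887. IL6 stood at 6.36, 9.7 and 22.7 CPM with Bojungikgi-tang from low to high dose, a trend of 0.96 (0.61 without the high-dose library, edgeR adjusted p = 1). The neutrophil chemokines CXCL1 and CXCL2 were rare, at 0.484, 1.14 and 3.02 CPM and at 0.807, 1.33 and 2.7 CPM. CCL2, which draws monocytes, rose from 22.7 to 27.6 and 36.4 CPM, and LIF from 23.7 to 28.9 and 41.3 CPM. All members named in this and the previous paragraph were called in the trend of both formulas. The members and lists were put together with earlier results of these data known.

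**Figure D1:**
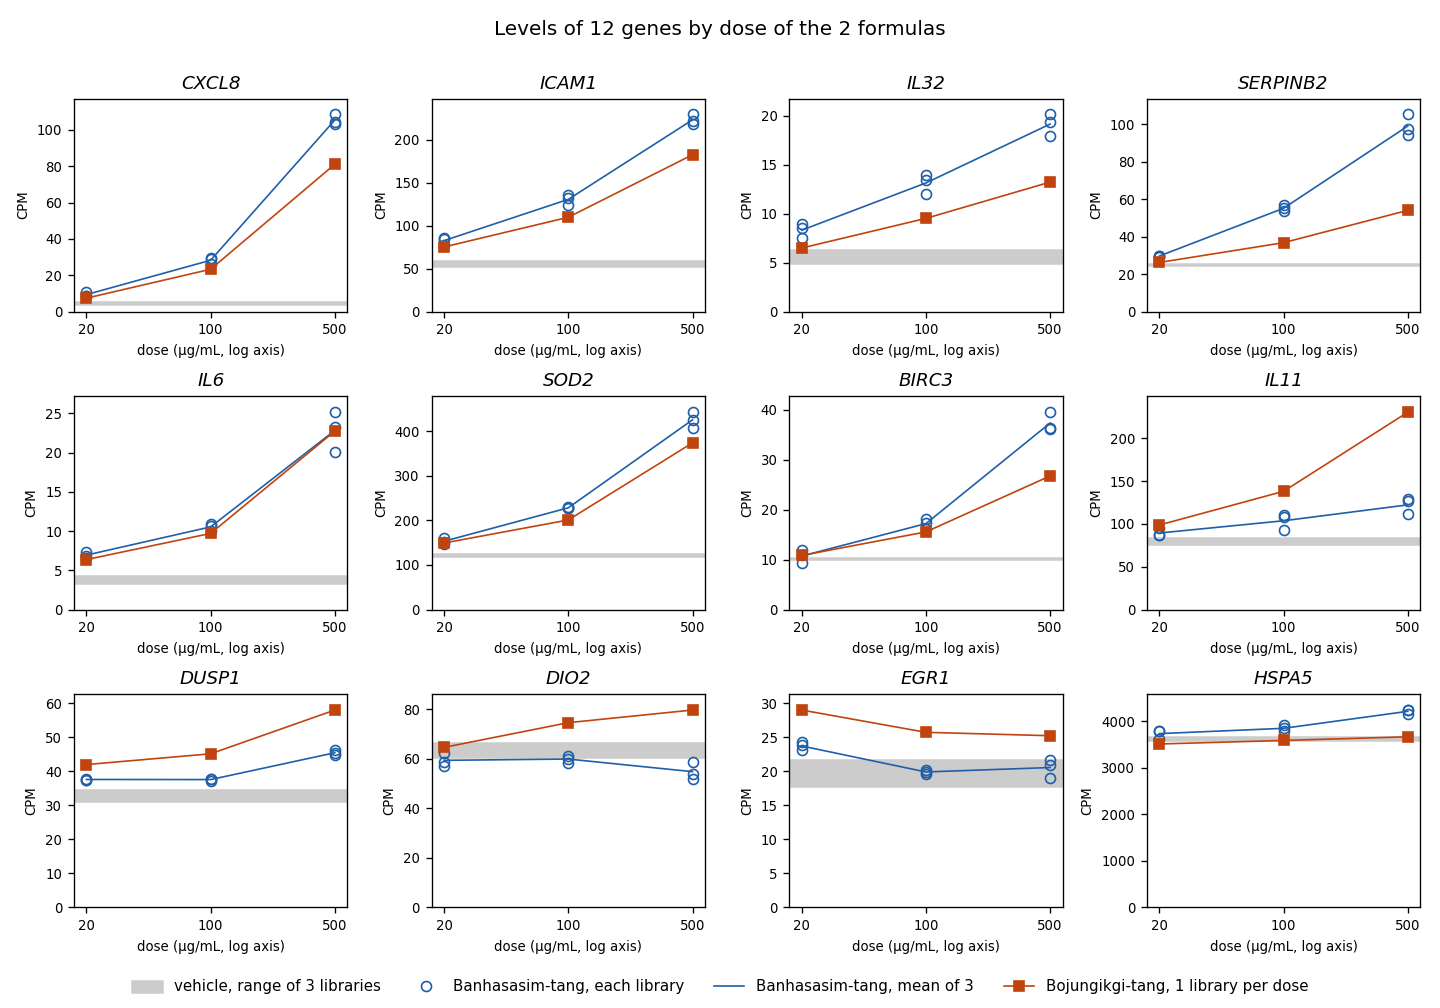
Levels of 12 genes (CPM, 1 panel each, y axes differ) against dose in µg/mL. Squares are the single Bojungikgi-tang libraries, circles the 3 Banhasasim-tang libraries per dose with a line through their means, and the grey band is the range of the 3 vehicle libraries. CXCL8 and ICAM1 climb with dose in both formulas with the squares below the circles, SERPINB2 separates most at the high dose (54.1 against 94.5 to 105 CPM), and IL11 is higher with Bojungikgi-tang (231 against 112 to 129 CPM).

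The promoters of 4 of these genes are printed: CXCL8 and ICAM1 rose with both formulas, and IL11 and SERPINB2 differed in their dose trend. All 4 were also called in the formula difference described below. Each line gives the 250 bases before the RefSeq start on GRCh38.p14, 5′ to 3′ on the gene's strand. Capitals mark the NF-kB form GGNNNTTCC or the AP-1 site TGANTCA, both searched on both strands, and no 2 marked matches overlap. CXCL8 is chr4:73740319-73740568 (plus), ICAM1 chr19:10270870-10271119 (plus), IL11 chr19:55370464-55370713 (minus) and SERPINB2 chr18:63887455-63887704 (plus).
CXCL8: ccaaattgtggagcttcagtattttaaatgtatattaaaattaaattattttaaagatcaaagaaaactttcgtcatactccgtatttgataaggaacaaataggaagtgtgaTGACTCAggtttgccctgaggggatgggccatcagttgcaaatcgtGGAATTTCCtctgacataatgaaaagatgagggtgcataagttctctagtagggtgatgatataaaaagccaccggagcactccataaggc
ICAM1: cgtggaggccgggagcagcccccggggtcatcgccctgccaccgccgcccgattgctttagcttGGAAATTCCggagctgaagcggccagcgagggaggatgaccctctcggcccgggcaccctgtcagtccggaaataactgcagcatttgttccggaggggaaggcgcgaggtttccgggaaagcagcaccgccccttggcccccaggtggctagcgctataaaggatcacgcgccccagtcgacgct
IL11: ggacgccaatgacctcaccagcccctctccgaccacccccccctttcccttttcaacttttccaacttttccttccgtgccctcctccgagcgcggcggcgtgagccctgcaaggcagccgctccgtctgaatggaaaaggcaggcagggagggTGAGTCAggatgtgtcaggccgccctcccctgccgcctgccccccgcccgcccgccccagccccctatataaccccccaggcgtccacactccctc
SERPINB2: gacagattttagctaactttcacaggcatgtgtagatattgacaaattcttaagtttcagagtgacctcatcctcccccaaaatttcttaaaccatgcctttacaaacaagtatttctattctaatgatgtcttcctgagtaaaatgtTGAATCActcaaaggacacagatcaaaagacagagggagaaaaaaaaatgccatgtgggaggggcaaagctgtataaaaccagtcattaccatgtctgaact
The CXCL8 line holds GGAATTTCC at -91 to -83 and TGACTCA at -137 to -131, counted from the start with -1 as the base before it. ICAM1 holds GGAAATTCC at -186 to -178. IL11 and SERPINB2 hold an AP-1 match each, TGAGTCA at -96 to -90 and TGAATCA at -102 to -96, and no match to the NF-kB form in this window.

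Over the same windows of 250 bases before the start, the NF-kB form was found in 17.1% of 27305 RefSeq promoters and the AP-1 site in 6.6%. The NF-kB form was chosen after the values were known. It was found in 8 of the 11 chemokine and cytokine genes that have a promoter in the table (72.7%). In the NF-kB list, whose members were listed for their tie to NF-kB, it was found in 7 of 12 (58.3%). Among the named genes that differed between the formulas, it was in 3 of 8 that were lower with Bojungikgi-tang (37.5%) and 0 of 11 that were higher. The AP-1 site was in 3 of those 8 and 2 of those 11 (18.2%). Among promoters searched but not printed, IL32, lower with Bojungikgi-tang, holds 3 matches to the NF-kB form. IL6, CXCL1 and TNFAIP3, which rose with both formulas, hold 1, 2 and 2. SOD2, which also rose with both, holds 0 of either site, as do EGR1 and DUSP1, higher with Bojungikgi-tang. Other motifs were searched too. Of these the AhR core GCGTG was in 31.9% of all promoters, 4 of the 8 lower genes (50%) and 1 of the 11 higher genes (9.09%). It was in 3 of the 11 chemokine and cytokine genes (27.3%) and 5 of the 12 of the NF-kB list (41.7%). A match describes letters in the window and says nothing of binding.

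Beyond these lists, CLDN1, a tight junction protein, rose with the dose of Bojungikgi-tang from 5.04 to 5.87 and 11.4 CPM (trend 0.62, edgeR adjusted p = 0.00119). Among the genes that fell with dose, ACTA2, smooth muscle actin, stood at 88.4, 77.3 and 52.4 CPM from low to high dose (-0.37), and the Banhasasim-tang means were 83.2, 72.8 and 48.7 CPM. TAGLN, a partner of actin filaments, had a trend of -0.19 and the keratin KRT18 of -0.33. ACTA2 and TAGLN were the 2 of 13 TGF-beta targets that fell with Bojungikgi-tang (0.614% of all genes fell), and 11 were not called. Other falls with Bojungikgi-tang were those of CRABP2, a retinoic acid binding protein (4.81, 3.95 and 2.19 CPM), LGR6, a receptor for R-spondins (5.55, 3.06 and 2.83 CPM), and PLXDC1 (10.75, 8.96 and 6.27 CPM). The trends of CCDC85A, CLIC3 and OLFML2B were -0.55, -0.35 and -0.35. Each of the falls named here was also called with Banhasasim-tang. Leaving out the high-dose library of Bojungikgi-tang left 5 trend calls, 4 rises and 1 fall, with CXCL8 and ICAM1 among the rises. ACTA2, TAGLN and KRT18 were not called in that run. The trends there, whether called or not, were 0.22 for CLDN1, -0.19 for ACTA2, -0.29 for CRABP2, -0.86 for LGR6, and -0.17 for CLIC3 and OLFML2B. Leaving out the low-dose library left 50 calls, without CCDC85A, CRABP2, LGR6, PLXDC1, CLIC3 and OLFML2B. LGR6 was then at -0.11, CRABP2 at -0.85, CLIC3 at -0.55 and OLFML2B at -0.54.

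The 9 Banhasasim-tang libraries gave 1189 trend calls (6.82%), 581 rises (3.33%) and 608 falls (3.49%). Of the 237 Bojungikgi-tang calls, 198 were among them, which is 83.5% of the Bojungikgi-tang calls and 16.7% of the Banhasasim-tang calls, and all 198 had the same sign. Of the 1189 Banhasasim-tang calls, 1097 (92.3%) had the same sign with Bojungikgi-tang, against 62.1% of all genes. Across the 11248 genes with a mean of at least 5 CPM, the slopes of the formulas had a Pearson r of 0.626, which is a description across genes and not across replicates. The trends rest on separate libraries and share the scaling and the estimate of spread. The difference of the trends itself was called in 3 genes (0.0172%), IL11, BOLA2 and SERPINB2, which are described below.

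**Figure D2:**
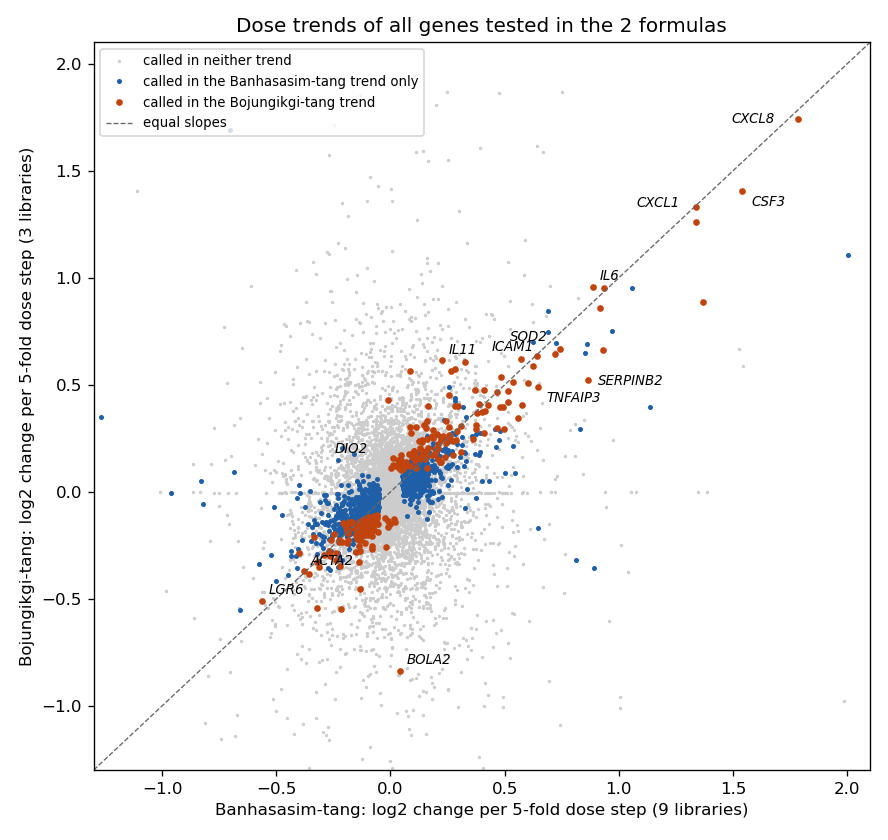
Dose trend (log2 change per 5-fold step) with Banhasasim-tang on the x axis and Bojungikgi-tang on the y axis, 1 point per gene tested, with the called genes marked. CXCL8 lies far out near the diagonal at 1.78 and 1.74, whereas IL11 lies above it and SERPINB2 below it. 66 genes lie outside the plotted range.

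At matched dose, few genes differed between the formulas, and the differences were small. With dose as a factor, 70 of 17440 genes were called (0.401%), 41 higher with Bojungikgi-tang (0.235%) and 29 lower (0.166%). The median size of a call was 0.205 on the log2 scale and the smallest 0.104. In 64 of the 70 the Bojungikgi-tang library lay beyond all 3 Banhasasim-tang libraries at each dose, which rests on the same libraries as the call. Such separation was seen in 2.84% of 17304 genes upward and 2.82% downward. The calls were larger at the high dose: the higher calls had median differences of 0.122, 0.244 and 0.277 at the low, medium and high dose, and the lower calls -0.127, -0.183 and -0.236. Leaving out the high-dose library of Bojungikgi-tang left 1 call, EGR1 at 0.33 (edgeR adjusted p = 0.048), leaving out the medium-dose library left 13 and leaving out the low-dose library gave 132. Of the genes named below, CXCL8, IL32, SERPINB2, IL11, DIO2, DUSP1, EGR1, HERPUD1 and HSPA1B were among those still called without the medium-dose library. Without the low-dose library AFAP1L2, SMG1P5, EIF3CL, CSF1, HSP90B1, PDIA4 and HSPA1A were among those not called.

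**Figure D3:**
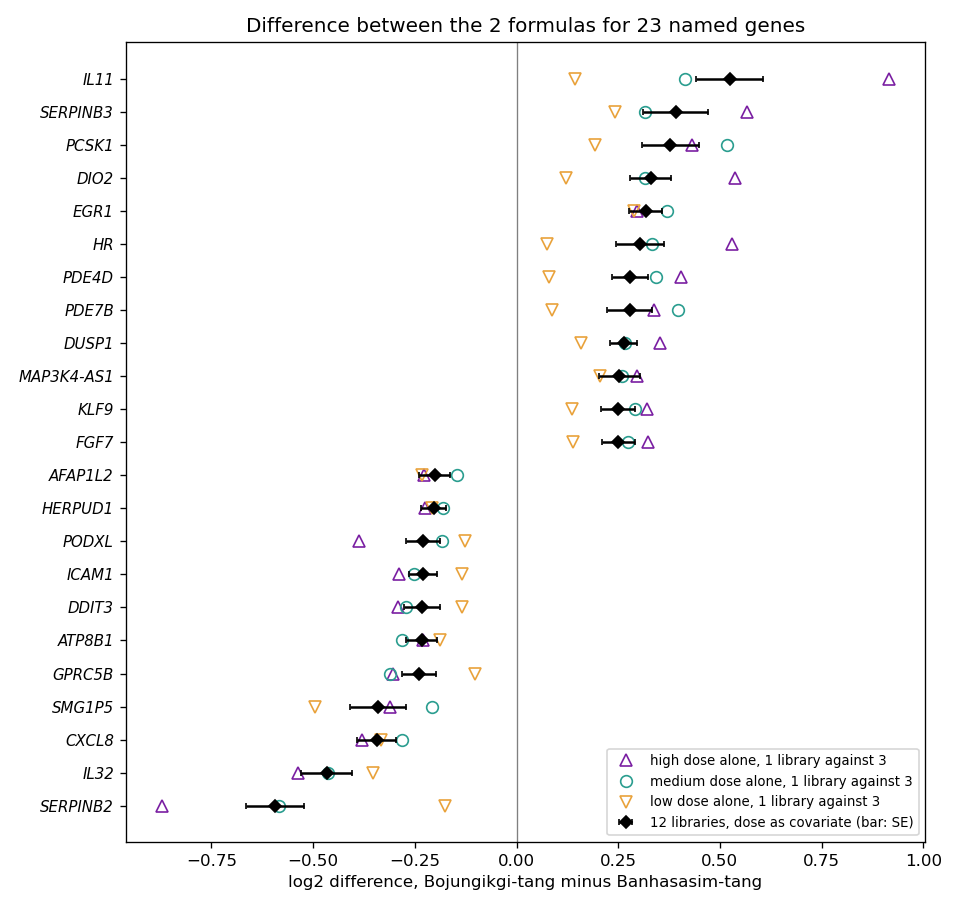
Log2 difference of Bojungikgi-tang minus Banhasasim-tang for 23 named genes (x axis). Diamonds with bars are the difference over the 3 doses ± SE, and open symbols are the differences at each dose. EIF3CL, at -2.48, is not drawn. IL11 has the highest diamond, at 0.52, and SERPINB2 the lowest, at -0.59.

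Of the genes in the NF-kB and cytokine lists, CXCL8, ICAM1 and CSF1 were lower with Bojungikgi-tang and IL11 was higher, and IL32, a cytokine outside the lists, was lower. CXCL8 differed by -0.34 ± 0.0478 (log2, SE; edgeR adjusted p = 0.00141), and its Bojungikgi-tang library lay below all 3 Banhasasim-tang libraries at each dose. ICAM1 differed by -0.23 ± 0.0343 (edgeR adjusted p = 0.00347) and was also below at each dose. IL32, a cytokine of lymphocytes and stromal cells (chromosome 16, 3065297 to 3082192, plus strand), stood at 6.49, 9.52 and 13.2 CPM with Bojungikgi-tang from low to high dose. The Banhasasim-tang libraries stood at 8.9, 8.51 and 7.52 CPM, at 14, 12 and 13.4 CPM and at 20.1, 19.4 and 17.9 CPM. The groups did not overlap at any dose, and the difference was -0.47 ± 0.0635 (edgeR adjusted p = 0.00126). CSF1, the macrophage growth factor, was lower by a smaller amount (-0.13 ± 0.0277, edgeR adjusted p = 0.0439). It stood at 186, 190.3 and 207 CPM with Bojungikgi-tang, and its Banhasasim-tang means were 201 ± 6.86, 203 ± 3.29 and 235 ± 8.2 CPM (SD, n = 3).

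Counted over the lists, ICAM1 was the 1 lower call among 15 NF-kB genes (0.166% of all genes were called lower), with 0 higher (0.235%). The median difference was -0.09, where the median over all genes was -0.001. In 4 of the 15 the Bojungikgi-tang library was below all Banhasasim-tang libraries at each dose (2.82% of all genes). Of 15 chemokines and cytokines, CXCL8 and CSF1 were lower, IL11 was higher and 12 were not called, with a median of -0.179. Without the high-dose library of Bojungikgi-tang 0 genes of either list were called. The median was then -0.065 for the chemokines and cytokines, 5 of 15 positive, and -0.084 for the NF-kB genes, 3 of 15 positive. Members that rose steeply with dose were not all different: IL6 had a difference of -0.06 (edgeR adjusted p = 0.822), at 22.7 CPM against 22.8 CPM on average at the high dose. SOD2 had -0.14 (edgeR adjusted p = 0.0703), at 374 CPM against a mean of 426 CPM at the high dose. BIRC3 stood at 26.7 CPM against a mean of 37.3 CPM at the high dose and 10.8 against 10.7 CPM at the low dose, and its difference over the doses was not called (edgeR adjusted p = 0.179).

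SERPINB2, the plasminogen activator inhibitor of inflamed and stressed cells (chromosome 18, 63871692 to 63903890, plus strand), rose with both formulas but less with Bojungikgi-tang. It stood at 26.3, 36.85 and 54.1 CPM with Bojungikgi-tang from low to high dose. The Banhasasim-tang libraries stood at 29.95, 29.96 and 29.2 CPM, at 56.8, 53.6 and 55.25 CPM and at 94.5, 97.6 and 105 CPM. The vehicle was at 25 ± 0.194 CPM (SD, n = 3), so the gap between the formulas opened from the low to the high dose, with no overlap at any dose. The difference over the doses was -0.59 ± 0.0717 (edgeR adjusted p = 0.000743) and the difference of the trends -0.34 ± 0.0447 (edgeR adjusted p = 0.0031). Without the high-dose library of Bojungikgi-tang these were -0.40 (edgeR adjusted p = 0.0573) and -0.38 (edgeR adjusted p = 0.776), and without its low-dose library the trend difference had an adjusted p of 0.897.

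IL11, a cytokine of the IL6 family made by stromal and tumour cells (chromosome 19, 55364389 to 55370463, minus strand), went the other way. It stood at 98.75, 138 and 231 CPM with Bojungikgi-tang from low to high dose. The Banhasasim-tang libraries stood at 94.9, 86.5 and 86.7 CPM, at 110.5, 92.3 and 108 CPM and at 129, 112 and 127 CPM, and the vehicle at 79.4 ± 3.9 CPM (SD, n = 3). Bojungikgi-tang was above all Banhasasim-tang libraries at each dose, by little at the low dose and by 1.89-fold in the fit at the high dose. IL11 rose 1.53-fold per 5-fold step with Bojungikgi-tang and 1.17-fold with Banhasasim-tang, a trend difference of 0.39 ± 0.0574 (edgeR adjusted p = 0.00676). The difference over the doses was 0.52 ± 0.0829 (edgeR adjusted p = 0.00487). Without the high-dose library of Bojungikgi-tang the difference was 0.28 (edgeR adjusted p = 0.214) and the trend difference 0.26 (edgeR adjusted p = 1). Without the low-dose library the trend difference had an adjusted p of 0.104.

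BOLA2, an iron-sulfur cluster chaperone, is the remaining gene whose trends differed, and its counts are uncertain because BOLA2B is a near-identical copy. BOLA2 stood at 15.6, 13.5 and 4.12 CPM with Bojungikgi-tang from low to high dose, and between 13.8 and 16.3 CPM in the 9 Banhasasim-tang libraries. BOLA2B moved oppositely, at 22.4, 24 and 33.8 CPM. The copies together gave 38, 37.5 and 37.9 CPM with Bojungikgi-tang against means of 37.4 ± 2.15, 40.1 ± 0.409 and 41.2 ± 3.62 CPM (SD, n = 3), so the low value of BOLA2 at the high dose was matched by a high value of its copy.

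Early response and signalling genes made up part of the higher calls. EGR1, a growth factor-induced transcription factor (chromosome 5, 138465490 to 138469315, plus strand), stood at 29, 25.75 and 25.25 CPM with Bojungikgi-tang from low to high dose. The Banhasasim-tang libraries stood at 23.8, 23.1 and 24.3 CPM, at 20.25, 19.9 and 19.6 CPM and at 21.7, 19.1 and 20.9 CPM. The difference of 0.32 ± 0.0405 (edgeR adjusted p = 0.000743) was of like size at each dose, with no overlap, and neither formula had a called trend. DUSP1, the phosphatase that switches off MAP kinases (chromosome 5, 172768090 to 172771195, minus strand), stood at 42, 45.15 and 58 CPM with Bojungikgi-tang. The Banhasasim-tang libraries were tight, at 37.5 to 37.8 CPM, 37.2 to 37.9 CPM and 44.7 to 46.2 CPM. DUSP1 rose with dose in both formulas and was higher with Bojungikgi-tang by 0.26 ± 0.0333 (edgeR adjusted p = 0.000743). EGR1 and DUSP1 were the calls among 20 immediate early genes, 2 higher (0.235% of all genes) and 0 lower (0.166%), with a median of -0.012. DUSP4, a related phosphatase, was higher by 0.16.

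DUSP1 is also a target of the glucocorticoid receptor, as is KLF9, a transcription factor of hormone responses. Both were higher among the 9 tested genes of that list (0.235% of all genes were called higher). KLF9 stood at 60, 62.7 and 69 CPM with Bojungikgi-tang, against Banhasasim-tang means of 54.6 ± 2.92, 51.1 ± 3.67 and 55.3 ± 1.94 CPM (SD, n = 3), a difference of 0.25 ± 0.0415 (edgeR adjusted p = 0.00524). With the vehicle it was at 66.1 ± 0.296 CPM, so Bojungikgi-tang lay nearer to the vehicle than Banhasasim-tang did. The metallothionein MT2A of the same list was lower (-0.18, edgeR adjusted p = 0.02). Its levels were 218, 245 and 308 CPM against means of 225 ± 6.03, 287 ± 4.37 and 371 ± 15.9 CPM (SD, n = 3), and at the low dose the formulas overlapped.

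DIO2, the deiodinase that makes active thyroid hormone in astrocytes (chromosome 14, 80197527 to 80387757, minus strand), stood at 64.6, 74.6 and 79.7 CPM with Bojungikgi-tang from low to high dose. The Banhasasim-tang libraries stood at 62.3, 57.3 and 58.6 CPM, at 58.5, 60 and 61.2 CPM and at 58.7, 53.9 and 51.8 CPM, and the vehicle at 63 ± 3.03 CPM (SD, n = 3). At each dose the Bojungikgi-tang library was the highest of the 4, with a difference of 0.33 ± 0.05 (edgeR adjusted p = 0.0038). The cAMP-degrading phosphodiesterases PDE4D and PDE7B were both higher, by 0.28. PDE4D stood at 33.9, 38.4 and 39.8 CPM against means of 32 ± 1.05, 30.3 ± 0.786 and 30.1 ± 0.777 CPM (SD, n = 3). HR, a corepressor of nuclear receptors, was steady with Bojungikgi-tang at 22.9, 22.5 and 21.4 CPM, while its Banhasasim-tang means fell from 21.8 ± 1.04 to 17.9 ± 0.487 and 14.8 ± 0.671 CPM (SD, n = 3). Its difference over the doses was 0.30 ± 0.0584 (edgeR adjusted p = 0.02), and the difference of the trends was not called (0.23, edgeR adjusted p = 0.297). Without the high-dose library of Bojungikgi-tang the difference was 0.20 for HR (edgeR adjusted p = 0.646) and 0.22 for DIO2 (edgeR adjusted p = 0.183).

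Secreted factors were also among the higher calls. FGF7, a growth factor for epithelial cells, rose with dose in both formulas and stood at 43.1, 50.65 and 68.3 CPM with Bojungikgi-tang against means of 39.2 ± 2.23, 41.8 ± 2.3 and 54.6 ± 2.11 CPM (SD, n = 3), a difference of 0.25 ± 0.0402 (edgeR adjusted p = 0.00487). INHBA, a subunit of activin, rose likewise to 169.5 CPM at the high dose against a mean of 145 ± 1.57 CPM (SD, n = 3), with a difference of 0.17 ± 0.029. WNT5A, a ligand of noncanonical Wnt signalling, was higher by 0.17 ± 0.0233 with no trend called in either formula. PCSK1, a prohormone convertase, and SERPINB3, a protease inhibitor, were higher by 0.38 and 0.39 at under 10 CPM in every library of both formulas. The SERPINB3 call was lost on leaving out any 1 of the 3 high-dose Banhasasim-tang libraries or the second medium-dose one (0.37 to 0.39, edgeR adjusted p = 0.051 to 0.0622). MAP3K4-AS1 was higher by 0.25, with an adjusted p of 0.0586 or 0.0501 without the second high-dose or medium-dose Banhasasim-tang library. It is an antisense gene, and without a stated strand setting its reads and those of MAP3K4 cannot be told apart.

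Chaperones of the endoplasmic reticulum (ER), which fold secreted proteins and rise in the unfolded protein response, held 5 calls, all lower with Bojungikgi-tang, among 17 tested genes (0.166% of all genes were called lower), and 12 were not called. All 17 had a negative difference, as had 8845 of all 17440 genes, and the median was -0.073. Without the high-dose library of Bojungikgi-tang 0 of the 17 were called (HERPUD1 at an edgeR adjusted p of 0.153) and the median was -0.063. Without the medium-dose library 1 was called, and without the low-dose library 3. HSPA5, the main ER chaperone (chromosome 9, 125234853 to 125241330, minus strand), stood at 3511, 3587 and 3666 CPM with Bojungikgi-tang from low to high dose. The Banhasasim-tang libraries stood at 3792, 3789 and 3622 CPM, at 3850, 3912 and 3780 CPM and at 4241, 4166 and 4233 CPM, and the vehicle at 3643 ± 36.6 CPM (SD, n = 3). The Bojungikgi-tang library was the lowest of the 4 at each dose, a difference of -0.13 ± 0.0239 (edgeR adjusted p = 0.0155). The other calls were HSP90B1 (-0.11), the disulfide isomerase PDIA4 (-0.12), the secreted factor MANF (-0.14) and HERPUD1 (-0.20), which serves ER-associated degradation. In 9 of the 17 genes Bojungikgi-tang lay below all Banhasasim-tang libraries at each dose (2.82% of all genes). With dose, 7 of the 17 rose with Banhasasim-tang (3.33% of all genes, 9 libraries). With Bojungikgi-tang 0 of 17 were called (1.36% of all genes, 3 libraries), and 16 had a positive slope, as had 8483 of all 17440 genes. The difference of the trends was called in 0 of them.

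DDIT3, the transcription factor CHOP of the stress response, stood at 24.3, 24.3 and 27.1 CPM with Bojungikgi-tang against means of 26.7 ± 1.63, 29.3 ± 1.07 and 33.2 ± 1.54 CPM (SD, n = 3), a difference of -0.23 ± 0.0445 (edgeR adjusted p = 0.02). It was the 1 call among 25 genes of the ATF4 list (0.401% of all genes were called). With dose, 4 genes of that list rose with Bojungikgi-tang, ASNS, SLC7A11, SLC7A5 and DDIT4 (0.745% of all genes), and 13 with Banhasasim-tang (3.33% of all genes). The trend difference was called in 0 of the 25. Of 12 heat shock chaperones, the paralogs HSPA1A and HSPA1B were lower (-0.16 and -0.18), against 0.166% of all genes. Summed, because reads may be split between them, they stood at 239, 250.5 and 243 CPM with Bojungikgi-tang against means of 276 ± 1.72, 274 ± 7.86 and 274 ± 8.63 CPM (SD, n = 3). SQSTM1, an autophagy receptor, was lower (-0.13 ± 0.0233, edgeR adjusted p = 0.0116).

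Membrane and adhesion genes were among the remaining lower calls. GPRC5B, an orphan receptor, stood at 30.7, 31.2 and 38.95 CPM with Bojungikgi-tang against means of 33 ± 0.952, 38.8 ± 1.85 and 48.05 ± 1.69 CPM (SD, n = 3), a difference of -0.24 ± 0.0418 (edgeR adjusted p = 0.00812). PODXL, a sialomucin of the cell surface, was lower (-0.23), with 58.6 CPM against a mean of 76.6 ± 4.21 CPM (SD, n = 3) at the high dose, and without that Bojungikgi-tang library its difference was -0.15 (edgeR adjusted p = 0.477). ATP8B1, a phospholipid flippase, was lower (-0.23), as was AFAP1L2, an adaptor of SRC signalling (-0.20). AFAP1L2 fell with dose in both formulas. The calls on SMG1P5 (-0.34) and EIF3CL (-2.48) are uncertain, since the first is a pseudogene of a multi-copy family and the other a near-identical copy of EIF3C. Without the second high-dose Banhasasim-tang library SMG1P5 had an adjusted p of 0.0542 and EIF3CL of 0.0707, and EIF3CL was also lost without replicate 2 (0.0599) or 3 (0.0691) of the medium dose. EIF3CL ranged from 2.85 to 102 CPM among the Banhasasim-tang libraries, and EIF3C and EIF3CL together stood at 573, 601 and 570.2 CPM with Bojungikgi-tang against means of 595 ± 4.79, 595 ± 6.88 and 572 ± 17.7 CPM (SD, n = 3).

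The other calls were small, from 0.10 to 0.25 upward and from -0.13 to -0.23 downward among genes with a symbol, SMG1P2 of the same family as SMG1P5 aside (0.74), and were chosen for mention after their values were seen. CHI3L1, a secreted glycoprotein of reactive astrocytes and gliomas, was the smallest of the higher calls (0.10 ± 0.0218, edgeR adjusted p = 0.0321), at 1341, 1229 and 1194 CPM with Bojungikgi-tang from low to high dose against means of 1242, 1117 and 1143 CPM. HIF1A, the hypoxia-inducible transcription factor, stood at 1178, 1236 and 1391 CPM against means of 1130, 1122 and 1195 CPM (0.14). Of 24 hypoxia and glycolysis genes 0 were called (0.401% of all genes), and 22 had a negative difference, with a median of -0.024. IGFBP4, which binds insulin-like growth factors, stood at 502, 477 and 545 CPM against means of 452, 440 and 430 CPM (0.21). CD55, which limits complement, was at 130.4 CPM against a mean of 109 CPM at the high dose (0.16), and SMOX, the spermine oxidase, at 66.6 against 51.2 CPM (0.25). NNMT, which methylates nicotinamide, the taurine transporter SLC6A6 and the guanine nucleotide exchange factor VAV3 were higher by 0.15, 0.18 and 0.24.

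Among the small lower calls, the hyaluronan synthase HAS3 stood at 27.1, 26.4 and 29.3 CPM with Bojungikgi-tang against means of 27.8, 34 and 35.7 CPM (-0.23 ± 0.0501, edgeR adjusted p = 0.0439). PLAT, the tissue plasminogen activator, was lower (-0.13), at 279, 248 and 252 CPM against means of 297.5, 270.1 and 286 CPM. The actin crosslinker FLNC (-0.15) and the lipid droplet protein PLIN2 (-0.13) were also lower. In 3 of the 70 calls the gene has no symbol in the tables used, and all 3 were below 2 CPM in every library group. One of them, ENSG00000254680, had counts in the low-dose library of Bojungikgi-tang alone among the 12.

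Taken dose by dose, with the single Bojungikgi-tang library assumed to vary like the other groups, the high dose gave 48 calls of 17983 genes (0.267%), 32 higher (0.178%) and 16 lower (0.089%). This balance depends on the fit: with 12 libraries it was 28 higher and 32 lower, and without a filter on low counts 60 and 67. Among the 48 were 13 of the 24 named genes, which were picked for separation at each dose, this one included, in the same libraries. The lower calls included BOLA2 (-1.90), SERPINB2 (-0.87), IL32 (-0.54), CHST7 (-0.54), BIRC3 (-0.48), CXCL8 (-0.38), ICAM1 (-0.29) and TNIP1 (-0.27), an inhibitor of NF-kB signalling. The higher calls included IL11 (0.92), PLEKHM3 (0.86), the steroid and prostaglandin reductase AKR1C3 (0.75), the granin SCG2 (0.71), DIO2 (0.54), HR (0.53) and the vitamin D hydroxylase CYP24A1 (0.42). At the medium dose 2 genes were called (0.0111%), SERPINB2 (-0.58) and GPRC5B (-0.31). At the low dose edgeR called 0 genes, with 565 at an unadjusted p under 0.05, and DESeq2 called 1.

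Most of the lists held no gene that differed between the formulas, where 0.401% of all genes were called. Over all 17440 genes 8595 had a positive difference and 8845 a negative one. Of 27 extracellular matrix genes 0 were called, 23 had a positive difference and the median was 0.028. With dose, 2 matrix genes fell with Bojungikgi-tang, COL1A2 and POSTN (0.614% of all genes), and with Banhasasim-tang 13 fell (3.49% of all genes) and 1 (LOX) rose. Among 22 interferon-stimulated and antigen presentation genes 0 differed. With dose, 1 (TAP1) rose with Bojungikgi-tang (0.745% of all genes) and 11 with Banhasasim-tang (3.33% of all genes). The trend difference was called in 0 genes of either list, and the formulas have 3 and 9 libraries. NRF2 targets, the oxidant defence genes, had 0 of 24 calls and a median of 0.028. AhR targets had 0 of 6, mitochondrially encoded genes 0 of 13, ribosomal protein genes 0 of 26 and mitosis genes 0 of 23. The difference was negative in 24 of the 26 ribosomal protein genes (median -0.033) and positive in 21 of the 23 mitosis genes (median 0.031). The 13 aminoacyl-tRNA synthetases held 0 calls and all had a negative difference, with a median of -0.03. A miss of the threshold does not show that the formulas act alike on these genes.

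**Figure D4:**
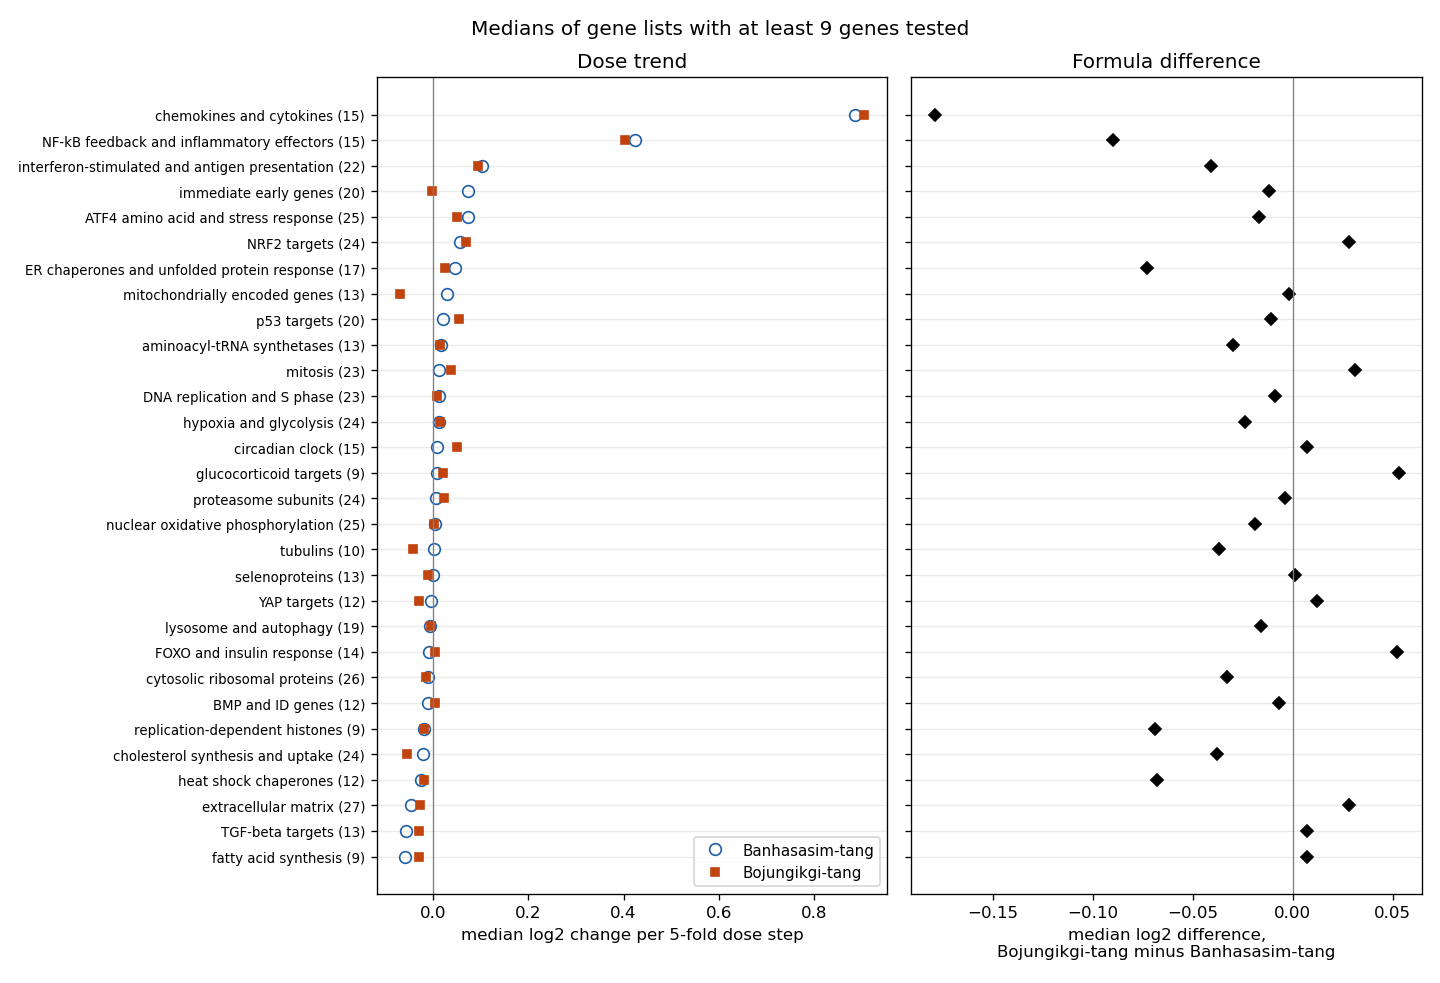
Median log2 difference of Bojungikgi-tang minus Banhasasim-tang, and median dose trend of each formula, for the 30 lists with at least 9 genes tested. The chemokine and cytokine list has the highest dose trends (0.906 and 0.887) and the lowest difference (-0.179), and most other lists lie near 0. Without the high-dose library of Bojungikgi-tang, a fit not drawn, the difference of that list was -0.065.

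Against the vehicle, whose code set also differs, the high dose of Bojungikgi-tang gave 1048 calls of 17983 (5.83%), the medium dose 129 (0.717%) and the low dose 58 (0.323%). Banhasasim-tang, with 3 libraries per dose, gave 2849 (15.8%), 1403 (7.8%) and 955 (5.31%). These counts share the vehicle libraries and rest on unequal numbers of libraries. CXCL8 at the high dose of Bojungikgi-tang was 16.4-fold above the vehicle (4.03 ± 0.103 on the log2 scale), ICAM1 3.28-fold, IL11 2.9-fold, IL32 2.44-fold, SERPINB2 2.16-fold and DUSP1 1.77-fold. HSPA5 was at 0.01 ± 0.0497.

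Yijung-tang, which shares the code set of Banhasasim-tang, served as a second formula at the same doses. Bojungikgi-tang differed from it in 165 of 17792 genes (0.927%), 118 higher and 47 lower, and Yijung-tang differed from Banhasasim-tang in 2003 of 16887 (11.9%). The first count comes from 3 against 9 libraries and the other from 9 against 9, so they do not rank the formulas. The median size of the difference over all genes was 0.0699 in the first and 0.0619 in the other. CXCL8 with Yijung-tang averaged 4.62, 6.26 and 12.6 CPM from low to high dose and ICAM1 54.8, 54.9 and 60.1 CPM, so both were below Bojungikgi-tang at every dose (4.04-fold and 2.08-fold higher with Bojungikgi-tang over the doses, edgeR adjusted p = 3.14e-05 and 0.000113). SERPINB2 averaged 25.4, 27.7 and 27.6 CPM and IL11 84, 90.1 and 104 CPM with Yijung-tang. DUSP1 averaged 38.6, 40.8 and 66.1 CPM, and its difference from Bojungikgi-tang was 0.02 ± 0.0508 (edgeR adjusted p = 0.895). HSPA5 averaged 3392, 3022 and 2362 CPM with Yijung-tang, below Bojungikgi-tang (0.32 ± 0.0629, edgeR adjusted p = 0.018).

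The series also holds 3 of the herbs of Bojungikgi-tang alone, in other code sets, and their high-dose means are given side by side without a test. CXCL8 was at 7.39 CPM with Citri Unshius Pericarpium (mandarin peel), 5.885 CPM with Cimicifugae Rhizoma and 9.44 CPM with Bupleuri Radix, where Bojungikgi-tang had 81.15 CPM. ICAM1 was at 53.4, 62.5 and 69.5 CPM, and IL11 at 120.2, 83.4 and 81.7 CPM. The labels do not state the share of each herb in the formula, so the doses do not correspond.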

How the data were processed

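The submitters' processing notes name RSEM 1.3.3, the aligner STAR 2.7.3a, FastQC 0.11.9 and the trimmer Trim Galore 0.6.5, and the builds GRCh38 and hg38. Per the labels' protocols, the libraries were made with a directional MGI kit. For the counting, strand setting and annotation release are not given in the sources. The authors deposited expected counts for 60675 genes in 60 libraries, estimated counts of which 9.22% were not whole, since RSEM divides reads shared by several genes. They were rounded to whole numbers. Symbols were matched for 41209 identifiers, 388 more were named from GENCODE release 29, and coordinates are from that release.

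Genes were filtered with filterByExpr by formula and dose, scaled by TMM and tested with edgeR 4.0.16 (glmQLFit, glmQLFTest) in R 4.3.3, with Benjamini-Hochberg adjustment over all genes tested. The formula difference was fitted on 12 libraries with dose as a factor, and the trends in 1 fit with a formula by dose step interaction. Differences at single doses and against the vehicle were fitted on group means of all 60 libraries. SE is the size of the log2 change divided by the root of the F statistic. CPM were computed with TMM factors over 60 libraries. The scripts were tested on simulated data. Pairs of Banhasasim-tang replicates differed by more than sampling noise (chi-square per degree of freedom 2.38 to 4.5).

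The genes named were the 12 largest calls in each direction of the formula difference with a symbol, a mean of at least 5 CPM in the higher formula and no overlap at any dose. Added to them were the 8 largest calls in each direction of the trends and called members of 42 gene lists. INHBA, WNT5A, DUSP4 and the genes named only from the high-dose calls fall outside this rule and were chosen after their values were seen. The members and lists were chosen with earlier results of these data known. Alternatives were RLE size factors, DESeq2 1.42.0, no filter, a filter by formula, a replicate block, 12 or all 60 libraries in the fit, and leaving out single libraries. List counts without single Bojungikgi-tang libraries were added after seeing the data.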

Additional observations from a re-analysis of the deposited data

Results flagged for a closer look

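In 3 genes the dose trend differed between the formulas by the test of the difference itself. The difference, Bojungikgi-tang minus Banhasasim-tang on the log2 scale per 5-fold step of dose, was 0.39 for IL11 and -0.34 for SERPINB2. For BOLA2 it was -0.88, where the sum of BOLA2 and its copy BOLA2B was 37.5 to 38 CPM in the 3 Bojungikgi-tang libraries. All 3 calls were lost without the high-dose library of Bojungikgi-tang, which is 1 of only 3 libraries of that formula.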

How the results depend on the processing

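With DESeq2 the formula difference had 113 calls and the dose trend difference 9, and without a filter on low counts they had 247 and 82, against 70 and 3. Without the filter the trend with Bojungikgi-tang had 496 calls, and the differences at the high, medium and low dose had 127, 61 and 61. DESeq2 called 1 gene at the low dose. Whether replicate numbers pair the samples was not settled, and Bojungikgi-tang has number 1 only. Same-numbered Banhasasim-tang libraries had correlations of 0 to 0.075 between doses, taken on departures from the group means. Differently numbered ones had -0.066 to 0.02. With the replicate block the formula difference had 29 calls, of which 22 were among the 70, and the dose trend difference 6. With all 60 libraries in the fit the dose trend difference had 1 call. Leaving out 1 library at a time gave 1 to 132 calls for the formula difference, 1 to 5 for the dose trend difference, 5 to 252 for the trend with Bojungikgi-tang and 824 to 1187 for that with Banhasasim-tang. At the high dose it gave 33 to 43 calls, at the medium dose 1 to 3 and at the low dose 0. Without Bojungikgi-tang libraries the differences at single doses cannot be fitted. Of the 24 named formula differences, 1 (EGR1) kept its call in every alternative run, 23 lost it in some and 0 reversed. Of the 16 named trends with Bojungikgi-tang, 2 (CXCL8 and ICAM1) kept it in all and 0 reversed. RLE size factors gave 69 calls and the filter by formula, an alternative chosen after seeing the data, 70. With 12 libraries in the fit the high dose had 60 calls, 28 higher and 32 lower, against 32 and 16. GFAP, S100B, AQP4, ALDH1L1 and FABP7 had too few counts to be tested at this depth.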
